A study of Mus musculus with 18 samples.

Results

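B cells of the Peyer's patches, which are lymphoid tissue in the wall of the small bowel, were compared with B cells of the spleen in mice treated with ovalbumin-loaded nanoparticles (OVA NPs). The libraries were chosen by their labels: 3 of Peyer's patch (PP) B cells and 3 of spleen B cells from OVA NP-treated mice, 6 of the 18 libraries of the series. All mice were female BALB/cJ, sensitized intraperitoneally at 4 to 6 weeks of age on days 0 and 14 with 20 μg OVA in 1 mg alum. They received 2.5 mg OVA NPs, 100 μL PBS, or 100 μg soluble OVA intravenously on days 28 and 42, and organs were taken on day 44, at 10 to 12 weeks of age. The 6 PBS libraries (3 for each tissue) served to find which tissue differences were smaller with OVA NPs, and the 6 soluble OVA libraries served to choose genes in 1 comparison, in 1 alternative fit, and in the closing observations. B cells were purified by negative selection in both tissues. PPs were digested with collagenase and DNase for 30 min at 37 °C, whereas spleens were lysed of red cells without digestion, so tissue and digestion cannot be told apart. The labels call the libraries biological replicates. For spleen of OVA NP-treated and PBS mice, the study's figure legend counts as many mice as there are libraries. Whether a PP or soluble OVA library holds 1 mouse or several is not given in the sources used here. The p-values set each difference against the spread between these libraries, which need not be the spread between mice.

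PPs are exposed to food and microbes and hold germinal centers at all times. In a germinal center, B cells divide quickly, mutate their antibody genes, and switch from IgM to other classes. In the gut the class is mostly IgA, and TGF-β is a signal for that switch. The spleen of an unchallenged mouse holds mostly naive follicular B cells and a separate marginal zone population, and its germinal centers form after immunization.

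Levels are given as CPM, the usual depth-scaled read count, after TMM scaling of library sizes, and tissue differences as log2 of PP over spleen ± standard error. DEGs passed an adjusted p of 0.05 (edgeR's quasi-likelihood test, Benjamini-Hochberg over all tested genes) with an absolute log2 above 0.25. Library totals ran from 21239188 to 22683083 counts for PP and from 16813558 to 25474996 for spleen of OVA NP-treated mice, where 3 counts correspond to 0.119 to 0.168 CPM. That limit covers counting error only.

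Both tissues expressed the B cell markers at high level. Of 10 B cell identity genes, 5 were lower in PP (*Cd79a*, *Cd79b*, *Ms4a1*, *Pax5*, and *Cd22*) and 0 were higher, with a median log2 of -0.23. Without spleen replicate 3 the count lower in PP was 3. The largest of these was *Cd79b*, a signaling chain of the receptor, with 847, 704, and 743 CPM in PP and 1183, 1270.0, and 1396 CPM in spleen (log2 -0.74 ± 0.08). The same 5 genes were lower in PP of PBS mice.

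Transcripts of other cell types differed between the tissues, and their part in the results was not tested. All 16 gut epithelial markers were higher in PP, where their summed level was 956.4 to 1856 CPM against 15.43 to 16 CPM in spleen, and 7 of them (*Fabp1*, *Fabp2*, *Reg3b*, *Reg3g*, *Lypd8*, *Defa24*, and *Lyz1*) were at 0 in all 3 spleen libraries. *Krt8*, a keratin of simple epithelium, had 219.5, 121, and 139.7 CPM in PP and 0.112, 0.11, and 0 CPM in spleen. All 15 tested T cell markers were higher in PP, with 203.3 to 234.3 CPM in sum against 70.17 to 89.92 CPM. The T cell receptor subunit *Cd3e* had 5.99, 4.94, and 4.65 CPM in PP and 1.4, 0.607, and 0.396 CPM in spleen. Dendritic cell markers (99.74 to 101.5 against 26.83 to 32.99 CPM, 7 of 10 higher) and NK and innate lymphoid markers (79.1 to 108.6 against 21.56 to 27.45 CPM, 6 of 10 higher, 1 lower) followed the same direction. A separate list of follicular helper and regulatory T cell markers had a lower sum in PP (312.5 to 362.1 against 418.1 to 481 CPM). Of its 7 tested markers, 5 were higher in PP and 1 was lower.

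Monocyte and macrophage markers summed to 342.4 to 436.1 CPM in PP and to 174.3, 143.5, and 53.06 CPM in spleen, with 6 of 14 tested markers higher in PP. *Ace*, a peptidase on this list that the small bowel brush border also carries, had 219, 93.5, and 126 CPM in PP. Epithelial sums were high in the same libraries, and their part in the monocyte sum was not tested. The defining markers *Lyz2* and *Csf1r* did not pass the test. Stromal markers overlapped in their sum (160.2 to 216.4 against 160.6 to 203.5 CPM), although 8 of 10 tested were higher in PP, among them *Col1a1* at 3.26, 2.89, and 1.09 CPM against 0.112, 0, and 0.159 CPM. Neutrophil and mast cell markers (51.1 to 99.16 against 207.9 to 617.2 CPM) and erythroid and platelet markers (45.13 to 103.3 against 284 to 541.2 CPM) were at higher sums in spleen. PP replicate 3 stood apart from the other PP libraries in these last lists. Without it, the neutrophil markers lower in PP were 4 instead of 1 of 9 (0 without PP replicate 1 or 2 or spleen replicate 1 or 2), and the erythroid markers lower in PP were 8 instead of 5 of 9. PP replicate 1 stood apart with the highest epithelial sum (1856 CPM). In bulk samples such as these, fewer cells of a type and less RNA per cell cannot be told apart.

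**Figure D1:**
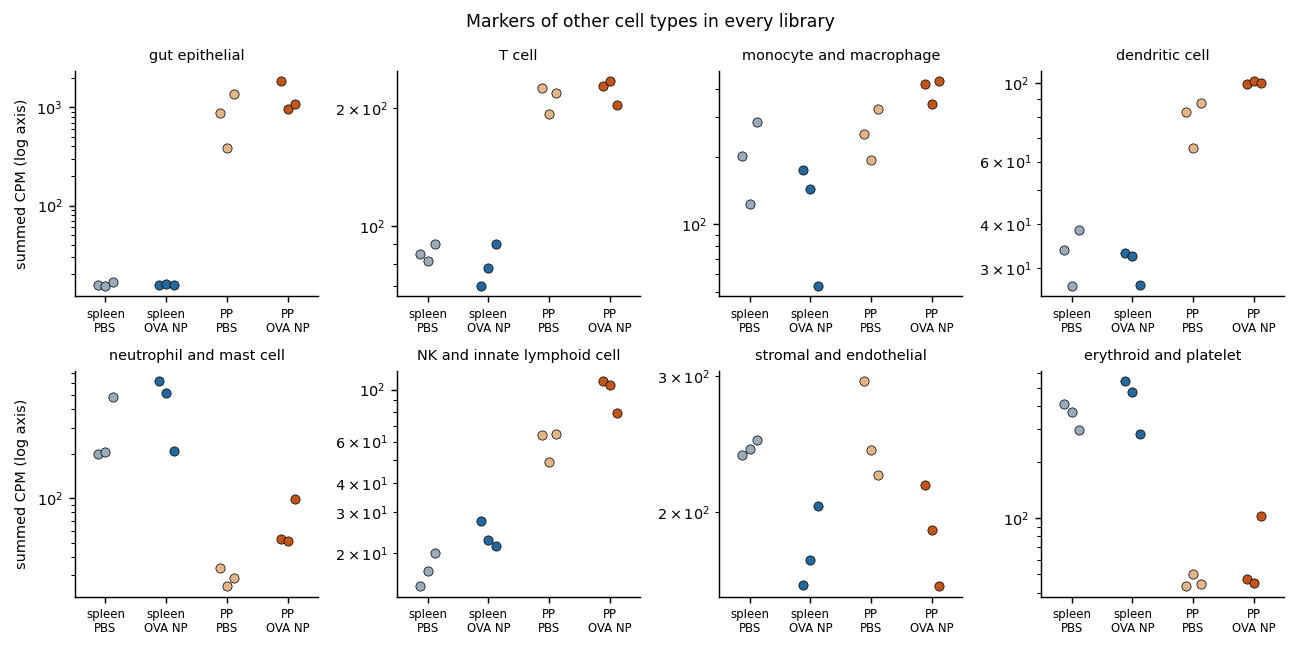
Summed level of the marker genes of 8 other cell types in every library (CPM, log axis that differs between panels), for spleen and PP of PBS and OVA NP-treated mice. Each point is 1 library; epithelial, T cell, dendritic cell, and NK sums of PP lie above all spleen sums, while neutrophil and erythroid sums of PP lie below them.

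After OVA NP treatment, 15466 genes were tested and 5735 were DEGs, with 3398 higher in PP (22% of those tested) and 2337 higher in spleen (15.1%). With an absolute log2 above 1, 2317 were higher in PP (15%) and 425 in spleen (2.75%). Counts in the gene lists below are to be read beside these shares. In PBS mice the corresponding contrast tested 15463 genes and had 7050 DEGs, with 3939 higher in PP (25.5%) and 3111 in spleen (20.1%), of which 2588 (16.7%) and 698 (4.51%) passed a log2 of 1. Of genes tested in every contrast, 4229 were DEGs in both treatments and 4222 of these had the same direction. Among the 14724 genes tested in every contrast, they were 78.75% of 5370 DEGs in OVA NP-treated mice and 63.09% of 6703 DEGs in PBS mice. The median log2 over all tested genes was 0.0021 with OVA NPs and 0.0091 with PBS.

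The difference between the treatments was tested itself, as the interaction of tissue and treatment over the 12 libraries of PBS and OVA NP-treated mice. Of 16619 genes, 734 passed the test. The PP minus spleen difference was smaller in size with OVA NPs for 577 of them (3.47% of those tested) and larger for 157 (0.945%). The interaction was negative, meaning that PP fell relative to spleen, for 589 genes (3.54%) and positive for 145 (0.872%). The largest group was 487 genes that were higher in PP of PBS mice, with a median log2 of 1.43 in PBS mice and 0.36 in OVA NP-treated mice. Within spleen, their median difference between OVA NP-treated and PBS mice was 0.89, and 446 of the 487 passed that test at an adjusted p of 0.05. Within PP the median was -0.13 and 4 passed. The same libraries chose these genes, so the counts are a description. Over all genes, 1045 were higher in spleen with OVA NPs than with PBS (6.29%) and 639 were lower (3.84%), while in PP 47 were higher (0.283%) and 31 were lower (0.187%). A further 90 genes were higher in spleen of PBS mice and had a smaller difference with OVA NPs, with a median log2 of -0.65 and then -0.13. In 278 genes the sign of the fitted difference changed, whether or not that difference passed the test in either treatment. Of these, 224 had a mean of at least 1 CPM. Among genes tested in every contrast, 7 were DEGs in both treatments with opposite directions. The number of genes past the interaction test depended on single libraries, and was 945 without PP replicate 2 of PBS mice. It was 488 without PP replicate 2 and 291 or 378 without spleen replicate 1 or 2 of OVA NP-treated mice, 362 without PP replicate 1 of PBS mice, and 317, 341, and 484 without spleen replicates 1, 2, and 3 of PBS mice.

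**Figure D2:**
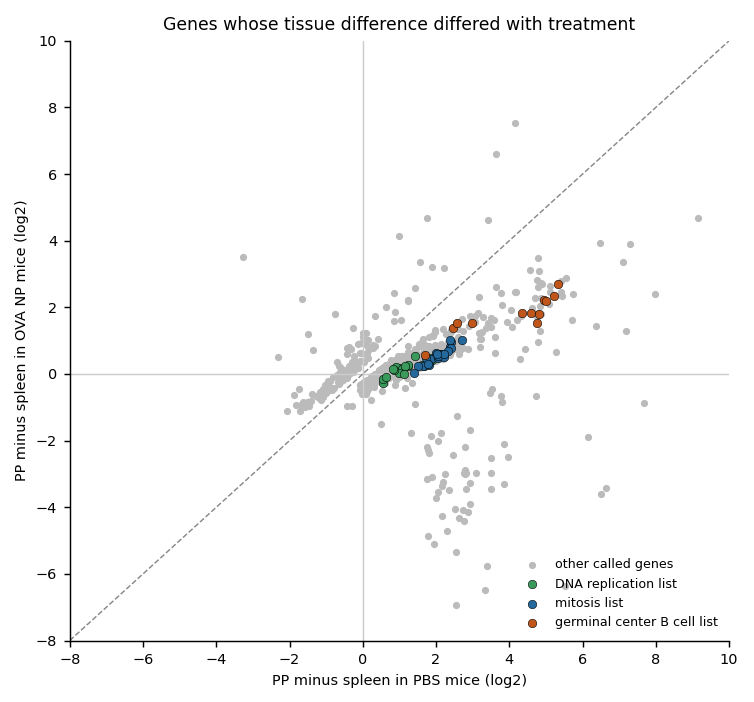
PP minus spleen log2 difference in PBS mice (horizontal) and in OVA NP-treated mice (vertical) for the 734 genes past the interaction test, with the dashed line marking equal differences. Members of the mitosis, DNA replication, and germinal center lists (coloured) lie to the right of the vertical zero line and below the dashed line, and the 278 genes whose sign changed lie in the upper left and lower right fields.

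Genes picked for a large difference in 1 contrast tend to differ less in another, so the sizes were compared for 3 choices of genes. Of 2939 genes with an absolute log2 above 1 in PBS mice, 65.29% had a smaller difference with OVA NPs (median absolute log2 of 2.31 and 1.99). The share was 86.33% for the 651 of these that were higher in spleen and 59.31% for the 2288 that were higher in PP. Of 2377 genes picked in the OVA NP contrast, 43.21% were smaller with OVA NPs and 56.79% were smaller with PBS. Genes were also picked in the soluble OVA libraries, which enter neither contrast and in which 15.1% of genes were higher in PP and 8.55% in spleen at a log2 of 1. Of these 3377 genes, 62.48% had a smaller difference with OVA NPs than with PBS, with median absolute log2 values of 1.37 and 1.68.

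Genes of mitosis, which build the spindle and separate the chromosomes, moved together. In PBS mice all 22 were higher in PP, each by a log2 above 1, with a median of 2.06. In OVA NP-treated mice 13 of 22 were higher in PP, 2 of them by a log2 above 1, with a median of 0.61. The interaction was negative in 21 of 22 (all but *Ndc80*), with a median of -1.50. All 22 were higher in spleen of OVA NP-treated than of PBS mice (median log2 1.34, against 6.29% of all genes), whereas the median in PP was -0.14. The interaction count ranged from 19 to 22 when 1 library was left out, and was 9 in a fit that paired same-numbered libraries of the tissues. The count of 13 was 7 without PP replicate 2 or 3 and 5 without spleen replicate 2 or 3, and without spleen replicates 1 and 2 together 7 of the 22 interactions remained past the threshold.

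*Mki67*, the nuclear protein used as a proliferation marker, had 596, 857, and 819 CPM in the 3 PP libraries and 540.2, 445, and 399.6 CPM in the 3 spleen libraries after OVA NPs. In PBS mice it had 832, 728, and 671 CPM in PP and 149.6, 131, and 177 CPM in spleen. The tissues did not overlap in either treatment, but spleen of OVA NP-treated mice lay above spleen of PBS mice. The log2 difference was 0.72 ± 0.18 with OVA NPs (adjusted p = 0.0191) and 2.32 with PBS, an interaction of -1.61 ± 0.24 (adjusted p = 0.00652). The call with OVA NPs was lost without spleen replicate 2 or 3. *Kif23*, a kinesin of the cell division furrow, had 57.4, 81.6, and 75.8 CPM in PP and 39.1, 33.1, and 33.8 CPM in spleen (log2 1.03, adjusted p = 0.000696), against 11.8, 11.3, and 14.9 CPM in spleen of PBS mice. *Cenpf*, a kinetochore protein, had 57.1, 80.7, and 83.6 CPM in PP and 44.1, 35.9, and 33.8 CPM in spleen (log2 0.97, interaction -1.47).

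*Plk1* and *Cdc20* are described because their interactions held in all 22 alternative analyses, a choice made after their values were seen. The mitotic kinase *Plk1* had 49.2, 56.2, and 59.1 CPM in PP and 49.4, 48.3, and 37 CPM in spleen, so the tissues overlapped after OVA NPs (log2 0.30, adjusted p = 0.0946, interaction -1.54). *Cdc20*, an activator of the anaphase-promoting complex, had 66.8, 81.4, and 84 CPM in PP and 58, 50.6, and 44.5 CPM in spleen (log2 0.61, adjusted p = 0.00544), with an interaction of -1.56. *Ccnb2*, a B-type cyclin, overlapped between the tissues (41.9, 59, and 64.7 against 44.7, 35.3, and 29.3 CPM) and did not pass the test with OVA NPs, with a log2 of 0.61 and an adjusted p of 0.0686. Its interaction was -1.64 (adjusted p = 0.0105). *Birc5*, the inner centromere protein survivin, had an interaction of -1.69, and its tissue difference with OVA NPs (log2 0.53, adjusted p = 0.0491) was lost when any 1 of PP replicates 2 and 3 or the 3 spleen libraries was left out.

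Many mitotic genes share promoter elements, the CCAAT box bound by NF-Y and the cell cycle homology region TTTGAA, through which they are repressed in resting cells and active in dividing cells. Promoters of 4 members are shown from 150 to 11 bases before the transcription start (RefSeq, GRCm38.p6, each gene on the minus strand), because these genes moved together between the treatments in spleen. They lie at chr7:135716390-135716529 for *Mki67*, chr4:118437354-118437493 for *Cdc20*, chr9:70421565-70421704 for *Ccnb2*, and chr1:189688097-189688236 for *Cenpf*. Capitals mark CCAAT and TTTGAA as read on the printed strand. The stretches of *Ccnb2* and *Cenpf* hold CCAAT but 0 TTTGAA.
Mki67: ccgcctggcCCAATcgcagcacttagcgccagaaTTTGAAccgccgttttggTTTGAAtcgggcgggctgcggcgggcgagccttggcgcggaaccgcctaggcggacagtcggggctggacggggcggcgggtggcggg
Cdc20: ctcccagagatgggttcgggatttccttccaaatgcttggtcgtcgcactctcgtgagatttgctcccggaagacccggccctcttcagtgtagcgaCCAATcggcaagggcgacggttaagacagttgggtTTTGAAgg
Ccnb2: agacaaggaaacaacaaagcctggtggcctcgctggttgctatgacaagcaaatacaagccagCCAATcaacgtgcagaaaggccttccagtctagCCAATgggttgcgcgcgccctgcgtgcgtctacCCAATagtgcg
Cenpf: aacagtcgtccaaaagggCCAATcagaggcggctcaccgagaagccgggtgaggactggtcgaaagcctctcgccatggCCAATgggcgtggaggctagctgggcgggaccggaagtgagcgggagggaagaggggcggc
RefSeq promoters were found for 19 of the 22 mitosis genes. In windows from 250 bases before to 50 bases after the start, both strands searched, CCAAT occurred in 16 of 19 (84.2%) and in 37.4% of all 32851 windows. TTTGAA occurred in 14 of 19 (73.7%, against 17.9%) and both strings in 13 of 19 (68.4%, against 6.95%). These are letter matches and not measured binding.

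DNA replication genes had few tissue differences past the test after OVA NPs. In PBS mice 21 of 22 were higher in PP, 12 of them by a log2 above 1, with a median of 1.03. In OVA NP-treated mice 3 were higher (*Cdc45*, *Pola1*, and *Uhrf1*), with a median of 0.19. The interaction was negative in 18 of 22. It was negative in 11 without PP replicate 2, in 8 and 11 without spleen replicates 1 and 2, and in 9, 9, and 10 without PP replicate 1 and spleen replicates 1 and 2 of PBS mice. In a fit that paired same-numbered libraries of the tissues, it was negative in 2. Of the 22 genes, 21 were higher in spleen of OVA NP-treated than of PBS mice (median log2 0.75, against 6.29% of all genes), and the median in PP was -0.16. *Uhrf1*, which guides maintenance of DNA methylation at the fork, had 119.7, 156, and 167 CPM in PP and 121, 111, and 93.2 CPM in spleen. These values overlapped, with a log2 of 0.45 (adjusted p = 0.0484) and an interaction of -1.46 (adjusted p = 0.00471). *Rrm2*, a subunit of the enzyme that makes deoxynucleotides, also overlapped at 74.8, 96.9, and 114 CPM against 89.6, 84, and 65.2 CPM (log2 0.27, adjusted p = 0.314, interaction -1.41). *Cdc45*, a part of the replicative helicase, had an interaction of -1.35. The 3 calls with OVA NPs were fragile, since the count was 1 without PP replicate 2 or 3, 0 without spleen replicate 2 or 3, and 9 without PP replicate 1. In the promoters found (17 of 22 genes, 20 windows), the E2F strings TTTGGCGC and TTTCGCGC occurred in 25% and 20% of windows, against 0.514% and 0.323% of all windows.

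Regulators of the G1 phase shared this pattern in part and by less. Whether or not it passed the test, the interaction was negative in sign in 12 of 14, against 8231 of 16619 over all genes. Its median was -0.33, against -0.91 for DNA replication. Within spleen their median difference between OVA NP-treated and PBS mice was 0.40, with 4 higher (6.29% of all genes). Within PP it was 0.0005. Of the 14 genes, 5 were higher in PP of OVA NP-treated mice and 6 were lower. A negative interaction passed the test in 3 (*Ccnd3*, *Cdkn2c*, and *E2f1*), against 3.54% of all genes. In the fit that paired same-numbered libraries it passed in 1. The count higher in PP was 3 without PP replicate 2 or 3 or spleen replicate 2 or 3. *Cdkn1a*, the cell cycle inhibitor p21, had 14.5, 15.6, and 14.5 CPM in PP and 0.895, 1.1, and 1.03 CPM in spleen, a log2 of 3.88 against 3.97 in PBS mice. *Ccnd1* was higher in PP by 2.48, and *Cdk6*, the kinase that partners with D cyclins, was lower by -0.98. *E2f1*, a transcription factor for S phase genes, had a log2 of 0.57 with OVA NPs and an interaction of -1.01. CACGTG occurred in 38.5% and TGACGTCA in 0% of the 13 promoter windows found for 10 of these 14 genes, against 7.15% and 1.79% of all windows.

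Germinal center genes stayed higher in PP, by less than in PBS mice. With OVA NPs 14 of 15 were higher in PP, 12 of them by a log2 above 1, and *Lmo2* was lower. The median log2 was 1.56, against 4.35 in PBS mice. The interaction was negative in 12, among them *Fas*, *Mybl1*, *Rgs13*, *S1pr2*, *Gcsam*, *Nuggc*, *Efnb1*, *Mef2b*, *Basp1*, *Plxnb2*, and *Stmn1*. These 12 were higher in spleen of OVA NP-treated than of PBS mice, and over the list the median was 2.43 in spleen and -0.13 in PP. *Bcl6*, the repressor that maintains the germinal center state, had 152, 213, and 202 CPM in PP and 94.8, 109.7, and 109.8 CPM in spleen, a log2 of 0.86 with OVA NPs and 1.14 with PBS (interaction -0.29, adjusted p = 0.38). The interaction count of 12 was 6 without PP replicate 1 of PBS mice, 4 and 7 without spleen replicates 1 and 2 of OVA NP-treated mice, and 4 and 6 without spleen replicates 1 and 2 of PBS mice. This count was 2 in the fit that paired same-numbered libraries. With spleen replicates 1 and 2 of OVA NP-treated mice both left out it was 0, while 11 genes stayed higher in PP.

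*Gcsam*, a signaling adaptor of germinal center B cells, had 98.4, 132, and 131 CPM in PP and 46.3, 40.7, and 37.9 CPM in spleen, with the most negative interaction of the list (-3.24, adjusted p = 0.00664). That call held with any 1 library left out. *Rgs13*, a brake on G protein signaling, had 75.1, 118, and 123 CPM in PP and 22.6, 21, and 24 CPM in spleen (log2 2.23), and its interaction of -2.74 was lost without spleen replicate 1 of OVA NP-treated mice or spleen replicate 1 or 2 of PBS mice. *Nuggc*, a nuclear GTPase of germinal center B cells, had 129, 174, and 173 CPM in PP, 35, 30.6, and 28.4 CPM in spleen, and 2.54, 1.92, and 7.46 CPM in spleen of PBS mice (interaction -2.88). *S1pr2*, the receptor that confines cells to the germinal center, had 103, 160.0, and 166 CPM in PP and 44.3, 40.2, and 37.6 CPM in spleen (interaction -3.00). The interaction of *Nuggc* was lost without spleen replicate 1 of either treatment, and that of *S1pr2* without PP replicate 1 of PBS mice, spleen replicate 1 or 2 of OVA NP-treated mice, or spleen replicate 1 of PBS mice. *Basp1* had the largest tissue difference of the list with OVA NPs, a log2 of 2.71, and its interaction (-2.63, adjusted p = 0.0492) was lost in 15 of 22 alternatives, among them the omission of any 1 library other than spleen replicate 3 of PBS mice.

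**Figure D3:**
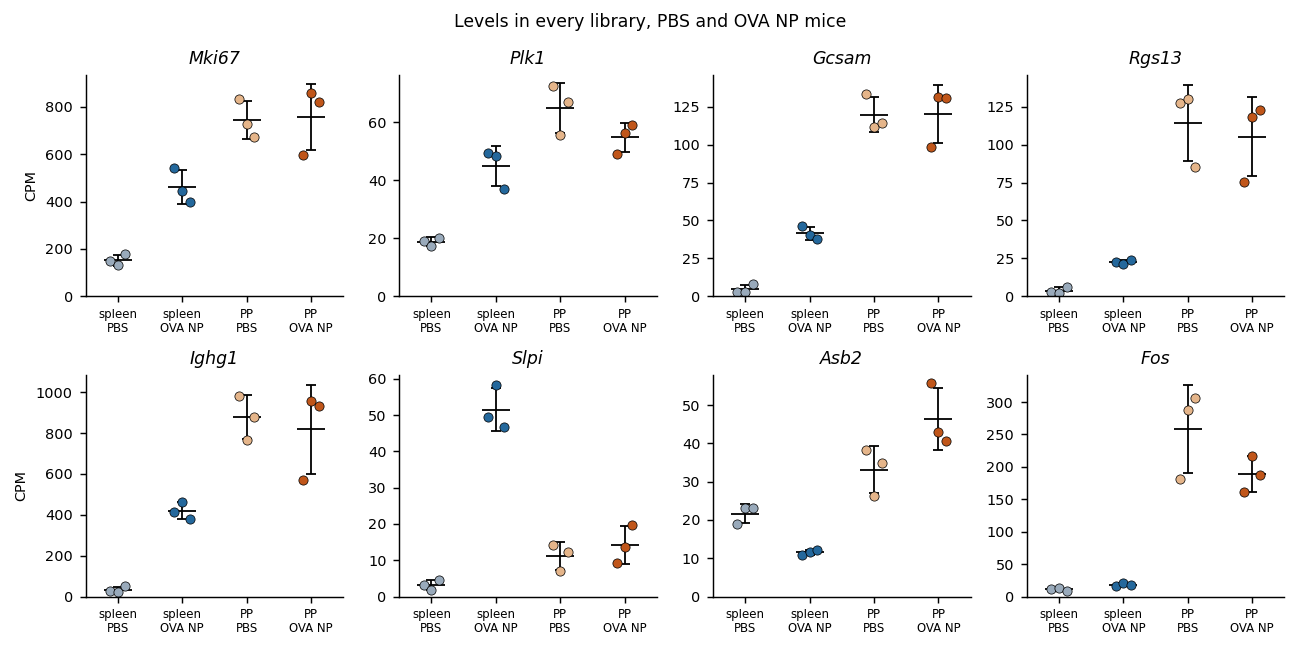
Level of 8 genes (CPM, axes from 0) in spleen and PP of PBS and OVA NP-treated mice, with 1 point per library and a bar at the mean ± SD (n = 3). *Mki67*, *Plk1*, *Gcsam*, *Rgs13*, *Ighg1*, and *Slpi* are higher in spleen of OVA NP-treated than of PBS mice without overlap and overlap between the PP groups, while *Asb2* is highest in PP of OVA NP-treated mice and *Fos* is high in both PP groups.

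**Figure D4:**
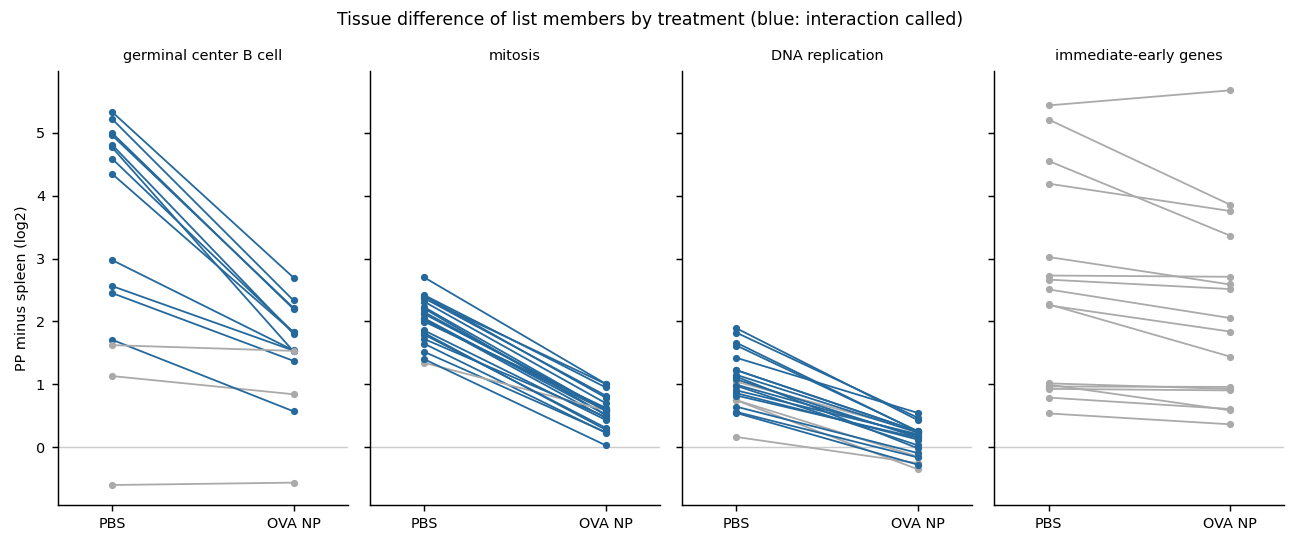
PP minus spleen log2 difference of each list member in PBS and in OVA NP-treated mice, joined by a line that is blue where the interaction passed the test (12 germinal center, 21 mitosis, 18 DNA replication, and 0 immediate-early genes) and grey elsewhere. Blue lines fall from left to right in the first 3 lists, and immediate-early genes stay at large differences.

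Genes of antibody mutation, class switching, and the repair that goes with them were divided. Of 13 genes, 5 were higher in PP with OVA NPs, among them *Ung*, *Msh6*, and *Polh*, and 3 were lower (*Apex1*, *Xrcc5*, and *Xrcc6*, of base excision and end joining), whereas in PBS mice 7 were higher and 0 were lower. The interaction was negative in 6, and in 3 without spleen replicate 1 of OVA NP-treated mice or spleen replicate 1 or 2 of PBS mice. *Polh*, the error-prone polymerase eta, had 58.4, 83.2, and 84.3 CPM in PP and 45.9, 44.2, and 45.1 CPM in spleen (log2 0.75, interaction -1.02). *Apex1*, an endonuclease of base excision repair, had 24.8, 26.9, and 30.6 CPM in PP and 39.6, 40.2, and 38 CPM in spleen (log2 -0.51), with 0.12 in PBS mice.

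Heavy-chain constant regions, on chromosome 12, separated IgA from IgG1. *Igha* had 1199, 848, and 623 CPM in PP and 6.43, 8, and 4.88 CPM in spleen, a log2 of 7.14 ± 0.38 (adjusted p = 0.000123). With PBS the log2 was 6.56, and the interaction of 0.58 did not pass (adjusted p = 0.562). *Ighg1* had 569, 955, and 931 CPM in PP and 414, 464, and 380.5 CPM in spleen, against 984, 769, and 879.9 CPM in PP and 26, 20.6, and 50.5 CPM in spleen of PBS mice. The groups did not overlap with OVA NPs, but the difference went from a log2 of 4.80 to 0.97 (adjusted p = 0.0158), an interaction of -3.84 ± 0.46 (adjusted p = 0.00535). The tissue call with OVA NPs was lost without spleen replicate 1 or 3, and the interaction held with any 1 library left out. *Ighg2b* (196, 75.9, and 111 against 12.7, 16.6, and 17.3 CPM, log2 3.05) and *Ighg3* (128, 91.2, and 88.2 against 48.8, 48, and 47.1 CPM, log2 1.11) were also higher in PP.

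The naive classes went the other way. *Ighm* had 2489, 1958, and 2156 CPM in PP and 3699, 4080.0, and 4171 CPM in spleen (log2 -0.85), and *Ighd* was lower in PP by -0.80. *Ighe* had 0.766, 2.98, and 6.98 CPM in PP and 8.95, 14.8, and 11.7 CPM in spleen, which do not overlap, but it did not pass the test (log2 -1.71, adjusted p = 0.106). It passed without PP replicate 1 or 3. Within spleen, *Ighe* was higher with OVA NPs than with PBS by 2.25 (adjusted p = 0.0256). *Ighg2c* had 2.73, 1.07, and 2.01 CPM in PP and 1.4, 1.1, and 3.33 CPM in spleen. Reads were mapped to a reference of another mouse strain, so counts of constant regions that differ between strains could be assigned differently. Of the 8 regions, 4 were higher in PP and 2 lower with OVA NPs, and *Ighg1* was the 1 with an interaction past the threshold.

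**Figure D5:**
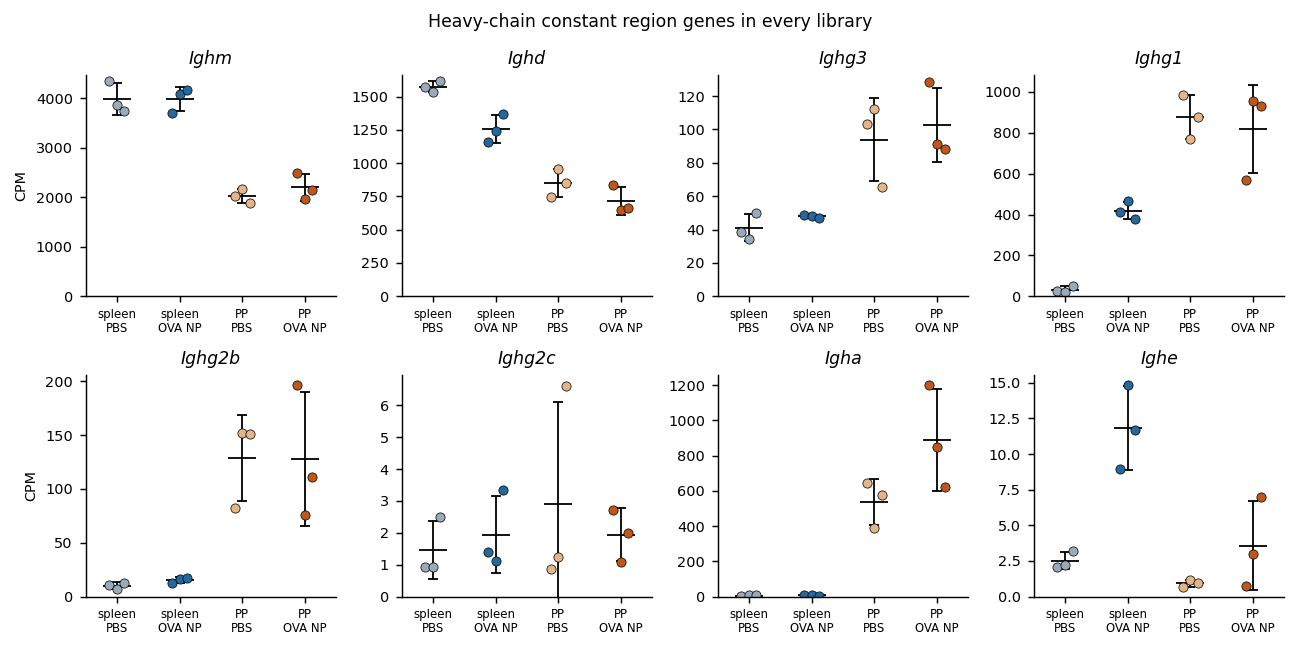
Level of the 8 heavy-chain constant regions (CPM, axes from 0) in spleen and PP of PBS and OVA NP-treated mice, 1 point per library with the mean ± SD (n = 3, error bars cut at 0). *Igha* is near 0 in both spleen groups, *Ighg1* of spleen is 380.5 to 464 CPM with OVA NPs and 20.6 to 50.5 CPM with PBS, and *Ighm* and *Ighd* are lower in PP.

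Plasma cell and secretion genes were partly higher in PP. Of 13 tested, 6 were higher with OVA NPs (*Prdm1*, *Sdc1*, *Jchain*, *Ell2*, *Tent5c*, and *Slamf7*) and 2 were lower (*Fkbp11* and *Pdia4*, which fold proteins in the endoplasmic reticulum), with a median log2 of 0.40. The count lower in PP was 1 without PP replicate 2 or 3 or spleen replicate 1. *Jchain*, which joins IgA dimers and IgM pentamers, had 765, 679, and 613 CPM in PP and 305, 304, and 289 CPM in spleen (log2 1.21), with an interaction of -1.07 that was lost in 9 of 22 alternatives, among them the omission of PP replicate 2, of PP replicate 1 or 3 or spleen replicate 3 of PBS mice, or of spleen replicate 1 or 2. *Tent5c*, a poly(A) polymerase of plasma cells, had 26.1, 36.8, and 40.8 CPM in PP and 17.8, 18, and 15.1 CPM in spleen (log2 1.04, interaction -1.56, adjusted p = 0.0127). The tissues overlapped in *Xbp1*, the factor that expands the secretory apparatus, at 117, 93.7, and 98.9 against 114, 100.1, and 106 CPM.

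Signal genes for IgA switching showed tissue differences in both directions. The interaction passed in 0 of 12, but a list this short cannot be told apart from the shares over all genes (3.54% negative, 0.872% positive). With OVA NPs, *Tgfbr1*, *Smad7*, *Runx2*, and *Skil* were higher in PP (22% of all tested genes). *Tgfb1*, *Tgfbr2*, and *Runx3* were lower (15.1% of all tested genes). The count lower in PP was 1 without PP replicate 3. *Runx2*, a RUNX transcription factor, had 15.7, 20.1, and 14.3 CPM in PP and 5.31, 4.36, and 3.09 CPM in spleen (log2 1.99). *Smad7*, an inhibitor induced by TGF-β, had 50.4, 73, and 68.6 CPM in PP and 20.5, 25.5, and 26.9 CPM in spleen (log2 1.41). *Runx3* was lower in PP by -0.31.

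Markers of resting B cell subsets were mostly higher in spleen. Of 11 naive follicular genes, 7 were lower in PP with OVA NPs and *Bach2* was higher. The count higher in PP was 0 without PP replicate 2 or spleen replicate 1 or 2, and 4 without PP replicate 1. *Foxp1*, a transcription factor of mature B cells, had 224, 208, and 208 CPM in PP and 309, 324, and 378 CPM in spleen (log2 -0.65). Of 12 marginal zone genes, 8 were lower in PP, with a median log2 of -0.70. They included *Cr2* (-0.84), the complement receptor, *Cd1d1* (-1.26), which presents lipids, and *S1pr3* with 20, 26.4, and 32.1 CPM in PP and 44.5, 51.7, and 62.3 CPM in spleen. The interaction passed the test in 0 of the follicular genes and in 2 of the marginal zone list, *Asb2* and *Mzb1*. The call of *Mzb1* was lost without PP replicate 1 or 2 or spleen replicate 1 or 2 of OVA NP-treated mice, and without PP replicate 1 or 3 or spleen replicate 1 or 2 of PBS mice. *Asb2*, a ubiquitin ligase subunit, was the exception in direction, with 55.6, 43, and 40.7 CPM in PP and 10.8, 11.6, and 12.2 CPM in spleen. Its log2 was 2.02 with OVA NPs and 0.66 with PBS, an interaction of 1.35 (adjusted p = 0.00471) that held with any 1 library left out.

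Homing receptors differed between the tissues in both directions. Of 11 chemokine receptors, 4 were higher in PP (*Cxcr3*, *Cxcr4*, *Ccr9*, and *Ccr10*) and 3 were lower (*Cxcr5*, *Ackr2*, and *Ackr3*). *Ccr9*, the receptor for the small intestinal chemokine CCL25, had 20.9, 18.5, and 16.3 CPM in PP and 4.08, 3.2, and 4.64 CPM in spleen (log2 2.23). Its interaction of 0.97 (adjusted p = 0.0466) was lost in 12 of 22 alternatives, among them the omission of PP replicate 1 or 2, spleen replicate 1 or 2, any 1 PP library of PBS mice, or spleen replicate 1 or 3 of PBS mice. *Cxcr5*, which guides B cells to follicles, had 258, 287, and 293 CPM in PP and 410.2, 412, and 474 CPM in spleen (log2 -0.62). *Ccr7* was not separated, since PP replicate 1 had 61.8 CPM while the others had 208 and 207 CPM, against 93.1, 95.7, and 95.5 CPM in spleen.

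Sphingosine phosphate and related receptors were mostly lower in PP. Of 7 genes, 4 were lower with OVA NPs (*S1pr1*, *S1pr3*, *S1pr4*, and the cannabinoid receptor *Cnr2*) and 2 were higher (*S1pr2* and *Gna13*, the G protein it signals through). The call of *Gna13* was lost without any 1 spleen library. *S1pr4* had 40.4, 21.9, and 32 CPM in PP and 88.7, 89.8, and 109 CPM in spleen (log2 -1.60). Of 12 integrins, 5 were higher in PP and 2 lower (1 without spleen replicate 1), against 22% and 15.1% of all tested genes. *Itgae*, the CD103 chain found on intraepithelial lymphocytes and on dendritic cells, had 27.7, 19.2, and 13.4 CPM in PP and 0.447, 0.386, and 0.396 CPM in spleen (log2 5.61). *Itgax*, the CD11c chain, had 38.9, 38.7, and 40 CPM in PP and 4.03, 4.3, and 4.44 CPM in spleen (log2 3.21, interaction 0.97, lost without spleen replicate 1). Dendritic cell markers moved with both, as given above, and their part was not tested.

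Immediate-early genes, which are induced within minutes of stimulation or stress, remained higher in PP. With OVA NPs 14 of 16 were higher in PP, 10 of them by a log2 above 1, with a median of 1.97, and all 16 were higher in PBS mice with a median of 2.40. The count of 14 was 5 without spleen replicates 1 and 2 together, and the interaction passed in 0 of 16. The digested tissue was PP in both treatments, so digestion and tissue cannot be told apart here. *Fos* had 162, 217, and 188 CPM in PP and 16.1, 21.2, and 17.5 CPM in spleen (log2 3.38), and *Atf3*, a stress-induced factor, had 7.18, 33.3, and 23.4 CPM against 0.391, 0.552, and 0.317 CPM (log2 5.69). *Nr4a1*, a nuclear receptor induced by antigen receptor signals, had 100.5, 757, and 709 CPM in PP and 35, 43.4, and 37.1 CPM in spleen, so PP replicate 1 stood apart from the other PP libraries. Its log2 of 3.77 (adjusted p = 0.0319) was lost without PP replicate 2 or 3 or any 1 spleen library. In 17 promoter windows found for 13 of the 16 genes, TGACGTCA occurred in 11.8% (1.79% of all windows) and CACGTG in 17.6% (7.15%).

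Among 12 heat shock genes, 3 were higher in PP with OVA NPs and 2 were lower, near the shares of all tested genes (22% and 15.1%). *Hspa1a*, the inducible Hsp70, had 974, 216, and 344 CPM in PP and 1.84, 2.43, and 2.65 CPM in spleen (log2 7.78), and *Hspb1* was higher by 3.63. The mitochondrial chaperones *Hspd1* (log2 -0.47) and *Hspe1* (-0.33) were lower in PP. The call of *Hspd1* was lost without PP replicate 1 or 2 or spleen replicate 1 or 2, and that of *Hspe1* without PP replicate 2, so the count lower in PP was then 1, or 0 without PP replicate 2. Within spleen 8 of the 12 were higher with OVA NPs than with PBS (6.29% of all genes), within PP 2 were (0.283%), and the interaction passed in 0.

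Interferon-stimulated genes were lower in PP after OVA NPs. Of 17, 10 were lower, among them *Isg15*, *Ifit2*, *Ifit3*, *Stat2*, *Mx1*, *Usp18*, *Ifi44*, *Xaf1*, and *Irf9*, and *Oasl2* was higher (2 genes without spleen replicate 3), with a median log2 of -0.77. In PBS mice 4 were lower and 2 higher, with a median of -0.24, but the interaction passed the test in 0 of 17. *Ifit3*, an antiviral RNA-binding protein, had 4.12, 1.96, and 1.73 CPM in PP and 6.88, 8.17, and 14.7 CPM in spleen (log2 -1.92). *Ifit2* had 5.17, 4.19, and 4.97 CPM in PP and 11.5, 11.6, and 15.7 CPM in spleen (log2 -1.43).

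Of 16 NF-κB targets, 5 were higher in PP with OVA NPs (*Nfkbiz*, *Traf1*, *Icam1*, *Cd83*, and *Bcl2a1b*) and *Bcl3* was lower. The count higher in PP was 3 without spleen replicate 1 or 2, and the count lower was 2 without PP replicate 1 or spleen replicate 1 or 2. *Cd83*, an activation marker that stabilizes MHC class II, had 516, 780.4, and 769 CPM in PP and 417, 419, and 476 CPM in spleen (log2 0.67), against 2.06 in PBS mice. It was the 1 member with an interaction (-1.40, adjusted p = 0.0133). Its tissue call with OVA NPs was lost without spleen replicate 1 or 2. *Nfkbiz*, an atypical IκB protein, was higher in PP by 1.31 with 77.7, 117, and 106 CPM against 37.4, 42.2, and 42.7 CPM.

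Antigen presentation and receptor genes differed little in size. Over all tested genes, 22% were higher in PP with OVA NPs and 15.1% were lower. Of 11 MHC class II genes, *Cd74*, the invariant chain, and *Ctss*, the protease that trims it, were lower in PP (log2 -0.26 and -0.54) and 0 were higher. The call of *Cd74* was lost in 9 of 16 alternatives, among them the omission of PP replicate 2 or 3 or spleen replicate 3, each of which left a count of 1. Among 11 tested ligands for T cells, *Cd80*, *Cd86*, and *Tnfsf9* were higher in PP and *Btla* and *Tnfsf4* were lower. The count higher in PP was 1 without PP replicate 2 or spleen replicate 3. *Btla*, an inhibitory receptor, had 159, 180.1, and 198 CPM in PP and 214, 223, and 258 CPM in spleen, and its difference went from -0.93 with PBS to -0.36 with OVA NPs (interaction 0.56, adjusted p = 0.0212, lost without spleen replicate 1 or 2 of OVA NP-treated mice or spleen replicate 1 of PBS mice). Of 17 B cell receptor signaling genes, 2 were higher in PP (*Pik3ap1* and *Inpp5d*) and 4 were lower (*Syk*, *Lyn*, *Blk*, and *Bcl10*), and in PBS mice 10 were lower. The count higher in PP was 1 without spleen replicate 1 or 2, and the count lower was 7 without spleen replicate 1.

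Survival genes split by member. Of 12 tested, 5 were higher in PP, among them the death-promoting *Pmaip1* (39.9, 70.5, and 70 against 16.5, 16.4, and 17.4 CPM, log2 1.85) and the protective *Bcl2l1* (log2 1.07). The 3 lower in PP were *Tnfrsf13b*, a BAFF and APRIL receptor, *Bcl2*, and *Mcl1*, the last with 606, 556, and 626 CPM in PP and 982, 989.9, and 1125 CPM in spleen (log2 -0.78). *Bak1*, a pore-forming death effector, had the 1 interaction of this list (-0.52, adjusted p = 0.00841), with a log2 of 0.13 with OVA NPs and 0.64 with PBS.

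The study took markers of regulatory B cells from the literature and kept those that differed between treatments in these spleen libraries. Their direction between treatments is therefore not independent evidence. The lists here hold only the markers that its text names. Of 25 such genes higher with OVA NPs, 12 were higher in PP of OVA NP-treated mice and 9 were lower, with a median log2 of 0.10 against 0.60 in PBS mice. The interaction was negative in 10. It was negative in 5 without PP replicate 1 of PBS mice, in 4 without spleen replicate 1 of OVA NP-treated mice, and in 5 and 4 without spleen replicates 1 and 2 of PBS mice. *Nt5e*, the ectoenzyme CD73 that makes adenosine, had 38.3, 56.7, and 49.3 CPM in PP and 9.45, 8.66, and 10.8 CPM in spleen (log2 2.33). *Lipc*, hepatic lipase, had 16.9, 23.5, and 25.4 CPM in PP and 7.77, 6.84, and 8.04 CPM in spleen (log2 1.54), and its interaction of -1.89 held in all 22 alternatives. *Zbtb32*, a zinc finger repressor, was lower in PP, with 7.76, 5.12, and 8.8 CPM against 21.4, 18.4, and 22.6 CPM (log2 -1.52), as was the galectin *Lgals1* (-1.01).

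Of 12 markers higher with PBS, 3 were higher and 3 lower in PP of OVA NP-treated mice, against 1 higher and 7 lower in PBS mice. *Actn1*, an actin crosslinker, had 31.2, 25.3, and 26.6 CPM in PP and 14, 13.3, and 13.7 CPM in spleen, and its difference was 1.03 with OVA NPs and 0.15 with PBS (interaction 0.87, adjusted p = 0.0149). *Il10*, the cytokine that defines many regulatory B cells, had 0.0958, 0.652, and 0.456 CPM in PP and 0.0559, 0.11, and 0.357 CPM in spleen, too low to be tested in either tissue contrast.

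All 13 transcripts encoded by the mitochondrial genome were higher in PP with OVA NPs, each by a log2 above 1, with a median of 1.49. In PBS mice 11 of 13 were higher in PP, 8 of them by a log2 above 1, with a median of 1.01. They took 9.077% to 9.803% of counts in PP and 3.019% to 3.385% in spleen. In PBS mice the shares were 5.412% to 7.667% and 2.816% to 3.194%, so the PP groups of the 2 treatments did not overlap. *mt-Co1*, a cytochrome oxidase subunit, had 41817, 42761, and 40033 CPM in PP and 11567, 10754, and 11975 CPM in spleen (log2 1.87). *mt-Atp6* was the 1 member past the interaction test (0.73, adjusted p = 0.0175), and 3 members passed that test without PP replicate 1 of PBS mice. Within PP, 3 of the 13 were higher with OVA NPs than with PBS (0.283% of all genes).

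The largest tissue differences were mostly in genes known from other cell types. By log2, the top 10 genes higher in PP included *Fabp1*, *Rbp2*, *Fabp2*, *Apob*, *Adh1*, *Alpi*, *Ckmt1*, *Apoa4*, and *Sis*, most of which are enterocyte genes of fat, sugar, and brush border metabolism. *Fabp1*, a fatty acid binding protein, had 349.8, 189, and 195 CPM in PP and 0 in each spleen library, at least 1622-fold higher against a floor of 3 counts per library. The top 10 higher in spleen included *Ear6*, *Epx*, *Rhd*, *Ctsg*, *Slc25a21*, *Fcnb*, *Sh3tc2*, *Prss57*, and *Ugt8a*, of which *Epx* and *Ear6* belong to eosinophil granules, *Ctsg* and *Prss57* to neutrophil precursors, and *Rhd* to red cells. *Epx* was 139.3-fold higher in spleen (95% counting interval 47.31 to 678.2). Among genes with at least 5 CPM in every library, a choice made after the values were seen, the leading spleen genes included *Slpi*, a secreted protease inhibitor. *Slpi* had 9.34, 13.6, and 19.8 CPM in PP and 49.5, 58.3, and 46.8 CPM in spleen (log2 -1.84), whereas in PBS mice it was higher in PP by 1.85.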

How the data were processed

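RNA of purified B cells was sequenced in 18 libraries, 3 for each tissue and treatment. The authors' reads were trimmed (cutadapt 2.3), aligned by STAR 2.7.8a to the GRCm38 genome, and quantified per gene by RSEM 1.3.3. The deposited values are expected counts for 55491 genes, without normalization, and 0 of them were not whole numbers. Gene positions came from an annotation of the same build (55227 identifiers matched).

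Genes were filtered with filterByExpr (edgeR 4.0.16, R 4.3.3, minimum count 10, minimum total 15), scaled by TMM, and tested with edgeR's robust quasi-likelihood test and Benjamini-Hochberg adjustment, on 6 libraries for each tissue contrast and 12 for the interaction. The procedure was also run on simulated counts with 1 spread for all genes and few changed genes. The libraries here differ from that setting, so the run does not give the error rate for these data. DESeq2 1.42.0, which the authors used, other filters, a replicate block, and omission of libraries were alternatives. Library totals of the 18 libraries ran from 14177253 to 30052297 counts. Replicates differed by more than counting noise. Counts for 4 list symbols were left out because 2 had several rows and 2 were not matched.

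Members and 34 gene lists were chosen with earlier results of these data known. Genes with values are the 10 largest tissue differences and interactions in each direction (mean of at least 1 CPM, without rows lacking a symbol, symbols beginning with Gm or ending in Rik, and antigen receptor segments), up to 5 members per list with the largest difference or interaction, all heavy-chain regions, *Il10*, and defining markers. *Bcl6*, *Plk1*, *Cdc20*, *Zbtb32*, and *Lgals1* were added after their values were seen. Some genes that the rule names are not reported here.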

Additional observations from a re-analysis of the deposited data

Results flagged for a closer look

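For 20 genes the PP minus spleen difference itself differed between OVA NP-treated and PBS mice by the edgeR interaction test, and these were the 10 with the largest log2 interaction in each direction among genes with a mean of at least 1 CPM. On the negative side, where PP fell relative to spleen, the values were -4.46 for *Cygb*, a globin, -4.06 for the clone-named locus *AC160336.1*, -4.04 for *Evc*, a ciliary protein of Hedgehog signaling, -3.84 for *Ighg1*, -3.73 for *Aif1l*, -3.71 for *Slpi*, -3.40 for *Emp2*, a membrane protein, -3.32 for *Gnaz*, a G protein subunit, -3.24 for *Gcsam*, and -3.10 for *Cntn2*, a contactin. *Gnaz* had 22.5, 32.3, and 33.5 CPM in PP and 5.65, 6.01, and 4.95 CPM in spleen of OVA NP-treated mice, against 38.3, 32.4, and 29.3 CPM and 0.262, 0.613, and 1.05 CPM in PBS mice, and its call held in every alternative run. *Evc* had 1.1, 2.33, and 1.87 CPM in PP and 2.57, 3.48, and 1.74 CPM in spleen with OVA NPs, and 0.35, 0.0817, and 0.137 CPM in spleen of PBS mice. *Cygb* was at 0 in all 3 spleen libraries of PBS mice, so its fitted value depends on the prior count and is no bound, and its call was lost in 16 alternatives, among them the omission of any 1 of the 12 libraries other than PP replicate 3 of OVA NP-treated mice. *AC160336.1* lost its call in 13 of 21 alternatives.

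On the positive side, where PP rose relative to spleen, the values were 1.60 for *Naip5*, an inflammasome receptor, 1.64 for *Neb*, 1.82 for *Aqp3*, a water channel, 2.10 for *Adgre4*, 2.68 for *Treml4*, 2.82 for *Cx3cr1*, the fractalkine receptor of monocytes, 2.92 for *Ace*, 2.96 for *Arpin*, 3.38 for *Zan*, and 6.79 for *Pagr1a*. *Cx3cr1* had 3.35, 3.59, and 3.69 CPM in PP and 3.52, 2.65, and 1.27 CPM in spleen with OVA NPs, against 1.49, 1.73, and 1.44 CPM and 7.04, 5.76, and 10.6 CPM with PBS, and its call held in every alternative run. *Adgre4*, *Treml4*, and *Ace* are on the monocyte and macrophage list, whose summed level in spleen of OVA NP-treated mice was 174.3, 143.5, and 53.06 CPM, and its part in these values was not tested. *Ace* had 219, 93.5, and 126 CPM in PP and 6.71, 6.46, and 4.2 CPM in spleen with OVA NPs. The calls of *Ace*, *Treml4*, and *Arpin* were lost in 13 alternatives each, that of *Zan* in 9, *Neb* in 14, *Pagr1a* in 15, and *Aqp3* in 17, each including the omission of several single libraries.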

How the results depend on the processing

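Of 2592 alternative values for 164 genes in the OVA NP tissue contrast, 2380 kept their status as called or not called, 173 lost the call, and 39 gained it. For the interaction of 165 genes, 3257 of 3593 kept their status, 309 lost the call, and 27 gained it. In both, 0 values changed sign where the gene was called in the main fit or the alternative. Direction was not compared where it was called in neither. Of 1390 alternative list counts, 292 moved by over 1.5 times.

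With DESeq2 the interaction called 1290 genes, 416 of them positive and 976 with a smaller difference in OVA NP-treated mice. Without a filter on low counts 346 interactions were positive, and with all 18 libraries in 1 fit 74 were. With at least 10 counts required in every library, 2187 genes were higher in PP with OVA NPs, 236 interactions were positive, and 75.87% of the large PBS differences were smaller with OVA NPs. That share was 74.47% at a log2 of 0.25 and 43.21% for genes picked in the OVA NP contrast, where the majority reversed. The last choice and both pairs of omissions that follow were made after seeing the data.

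Without PP replicate 3 of OVA NP-treated and PP replicate 2 of PBS mice, 333 interactions were positive. PP replicate 2 of PBS mice had the lowest total of the 18 libraries (14177253 counts) and the lowest epithelial sum of the PP libraries (388.9 CPM). Without it alone, 945 interactions passed and 283 of them were positive. Without spleen replicates 1 and 2 of OVA NP-treated mice, which leaves 1 spleen library, assumed to vary like the other groups, there were 3154 DEGs with OVA NPs (2139 higher in PP, 1015 in spleen), 46 interactions (44 negative, 2 positive, 43 smaller), and a share of 59.27%.

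Leaving out 1 library gave 4814 to 6276 DEGs with OVA NPs (2972 to 3636 higher in PP, 1766 to 2640 in spleen), 6375 to 7829 with PBS (3614 to 4465 and 2598 to 3364), 248 to 313 list members higher or lower, 291 to 945 interactions (243 to 671 negative, 45 to 283 positive, 255 to 767 smaller), and shares of 61.92% to 68.71%.

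With a replicate block the interaction called 348 genes (262 negative, 86 positive, 273 smaller), and negative interactions numbered 9 instead of 21 in the mitosis list, 2 instead of 18 in DNA replication, and 2 instead of 12 in the germinal center list. Deviations of same-numbered libraries correlated by 0.0455, -0.0402, and -0.0414 with OVA NPs and 0.00214, 0.0973, and 0.004 with PBS. Those of differently numbered libraries correlated by -0.0717 to 0.0735. With 3 libraries per group, these values cannot tell whether same-numbered libraries share a mouse, so the block may or may not be the right model. The causes of these changes were not tested, except that fewer libraries or genes entered where some were left out.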

Other observations

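A set of genes that no list holds was seen in the plot of tissue differences, and it was picked after its values were seen. There were 50 genes past the interaction test that were higher in PP of PBS mice (log2 above 0.5) and higher in spleen of OVA NP-treated mice (log2 under -1). Of these, 47 had a mean under 1 CPM and 12 were olfactory or vomeronasal receptor genes, which are sensory receptors. The summed level of the 1768 sensory receptor genes in the table was 174.9, 102.1, and 61.47 CPM in spleen of OVA NP-treated mice and 42.57 to 48.12 CPM in PP of the same treatment. In PBS mice it was 50.26 to 57.53 CPM in spleen and 73.78, 69.49, and 132.8 CPM in PP. In soluble OVA mice it was 60.66, 304.4, and 35.41 CPM in spleen and 24.36 to 31.99 CPM in PP. Among genes with a mean of at least 1 CPM, 671 passed the interaction test, 548 with a smaller difference in OVA NP-treated mice and 123 with a larger one, and the sign changed in 224.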
